A study of Homo sapiens with 6 samples.

Results

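The genes examined here are 50 that act in mitosis and at the centromere, chosen by name: the kinases and cyclins that drive cells into division, the proteins of the kinetochore and the spindle checkpoint, the kinesin motors, and the proteins that separate chromosomes and divide the cell. All 50 were found among the 20263 genes of the deposited table, and all 50 were among the 13769 genes that passed the filter on low counts. The study asked how HMOX1 bears on the proliferation of pancreatic ductal adenocarcinoma cells. HMOX1 encodes heme oxygenase-1, the enzyme that opens the heme ring. Polyadenylated RNA was sequenced from AsPC-1, a human pancreatic adenocarcinoma line, in 6 libraries. The groups were HMOX1si1, HMOX1si2 and siControl, with 2 libraries each: AsPC-1 cells transfected by jetPRIME with the first siRNA against HMOX1, with the second, or with a negative control siRNA. All cells carried a transfected siRNA and grew in RPMI1640 with fetal bovine serum, and the time after transfection is not given in the sources used here. Nothing in the labels says that replicates came from separate cultures, so the p-values measure the spread between these libraries, which may be technical.

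Mitotic genes are transcribed in waves. CDK1 bound to cyclin B starts mitosis, Polo and Aurora kinases build the spindle, and the checkpoint holds anaphase until each kinetochore has caught microtubules. The anaphase-promoting complex, with CDC20, then marks cyclin B and securin for destruction. Most of these transcripts peak in G2 and mitosis under the control of the MuvB complex with B-MYB and FOXM1, and they are widely used as signs of dividing cells. In bulk RNA, fewer cells in mitosis and less of a transcript per cell cannot be told apart.

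The libraries held 36144330 to 45068660 counts each and 14999 to 15220 detected genes. HMOX1 itself (ENSG00000100292, chr22:35380361-35394214) was at 2.43 and 2.80 counts-per-million (CPM) with HMOX1si1 and at 1.27 and 1.17 CPM with HMOX1si2, against 9.06 and 8.52 CPM with siControl. Its log2 fold change was -1.75 with HMOX1si1 and -2.85 with HMOX1si2, with adjusted p = 0.00618 and 0.00951 (edgeR quasi-likelihood test, Benjamini-Hochberg over all genes tested). The fitted level was 29.8% of siControl with HMOX1si1 and 13.9% with HMOX1si2, and the difference between the siRNAs was -1.10 (adjusted p = 0.0284, lost without any 1 of the 6 libraries and, at 0.0925, in the fit of those 2 groups alone). Without siControl replicate 2 the HMOX1si1 value lost its call (adjusted p = 0.0637), and without either siControl library the HMOX1si2 value did (highest adjusted p 0.0960). Of the 7 epithelial markers KRT8, KRT18, KRT19 and EPCAM were at 602 CPM or more in every library, CEACAM6 at 886 to 1350 CPM, CDH1 at 73.8 to 139 CPM and KRT7 at 22.5 to 30.8 CPM. Of the 16 markers of fibroblasts, blood and endothelium, LUM (72.4 to 122 CPM), CD68 (87.7 to 160 CPM), CD14 (5.79 to 10.6 CPM) and COL1A1 (2.49 to 4.55 CPM) were above 2 CPM in every library. The other 12 stayed at or below 1.05 CPM, among them PTPRC (at most 0.181 CPM) and VWF (at most 0.593 CPM), and CD3E and HBB were at 0.

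The mitotic genes were among the well expressed ones. Per kilobase of exon, their siControl levels ran from 3.0 CPM for CENPE, a kinesin of the kinetochore, to 98.5 CPM for UBE2C, the ubiquitin-conjugating enzyme of the anaphase-promoting complex. Their median was 13.4 CPM per kilobase, against 4.92 for all genes tested. CDC25B (78.7), TPX2 (61.6), CDC20 (49.6), CCNB1 (47.5) and AURKA (45.1) followed UBE2C on this scale. The lowest count of any of the 50 in a library was 346. Within a group the replicates of a gene differed by a median ratio of 1.07 with HMOX1si1, 1.11 with HMOX1si2 and 1.09 with siControl. FOXM1 in siControl (2.58-fold) and MKI67 in HMOX1si2 (1.53-fold) were the only genes whose replicates stood more than 1.5-fold apart.

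**Figure D1:**
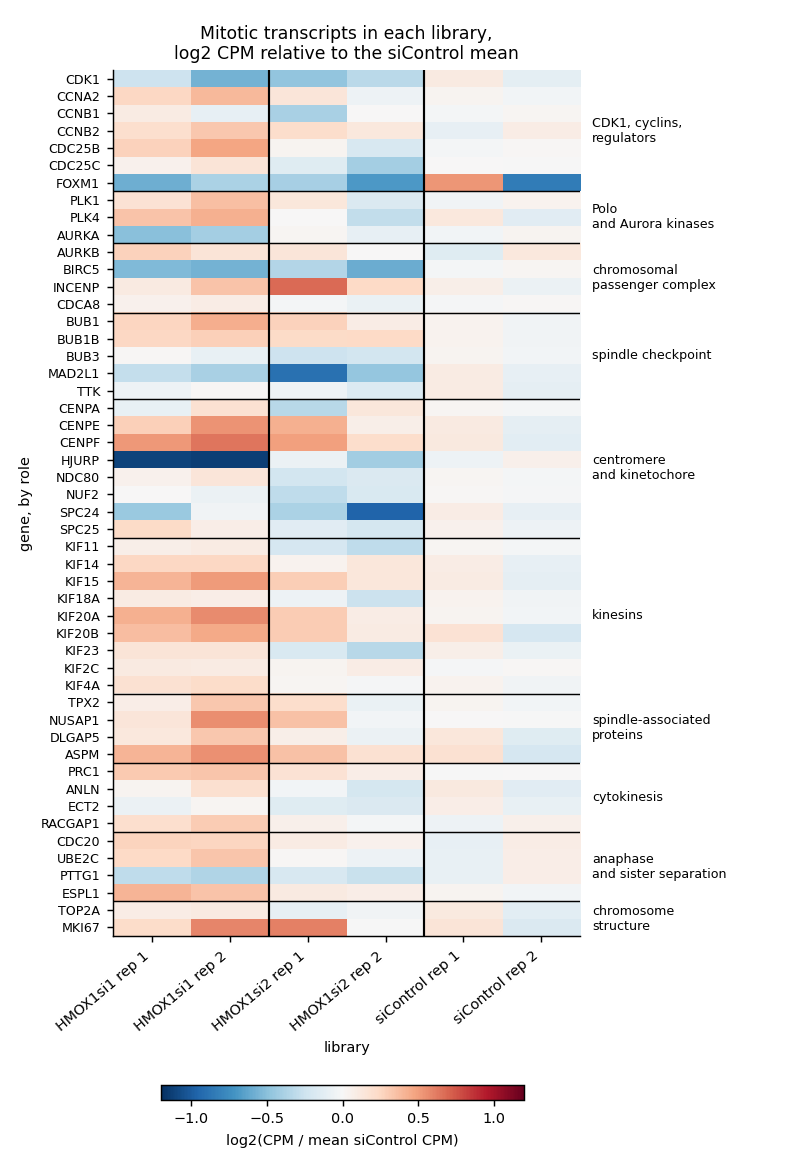
Each cell of the heat map is the log2 ratio of a gene's CPM in a library to its mean CPM in the 2 siControl libraries, with genes in rows by role and libraries in columns. HJURP is the darkest row with HMOX1si1, the kinesins are pale to mid red in both HMOX1si1 libraries, and the FOXM1 row changes colour between the 2 siControl libraries.

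With HMOX1si1, 38 of the 50 mitotic transcripts had fitted levels slightly above siControl, and 12 had lower ones. A gene is called here when its adjusted p is under 0.05 (edgeR quasi-likelihood test over all 13769 genes). By that rule 5 of the 50 genes were called: KIF20A and ESPL1 rose, and HJURP, AURKA and BIRC5 fell. Over all genes 10.0% were called, 5.02% higher and 5.01% lower, so the number of calls was no larger among the mitotic genes. The direction of the small changes was uneven. The share with a fold change above 0 was 76.0% for the 50, against 49.9% of all genes tested, and the median was 0.20, against -0.0013 for all genes. Both HMOX1si1 libraries lay above both siControl libraries for 33 of the 50 genes and below both for 6, where all genes gave 31.9% above and 31.9% below. Genes read in the same libraries are not independent observations, here and in the counts below. At an unadjusted p under 0.05, 17 genes were higher and 5 lower. Of all 13769 genes, 2162 were higher and 2072 lower at that p.

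With HMOX1si2, with which HMOX1 was lower than with HMOX1si1, the mitotic genes showed no such lean. None of the 50 genes was called, where 5.73% of all genes were (3.06% higher and 2.67% lower). At an unadjusted p under 0.05 in the same edgeR test, 3 were higher and 7 lower. Of all 13769 genes, 1881 were higher and 1679 lower at that p. DESeq2 called 2 of the 50 lower (MAD2L1 and BIRC5) and 0 higher, where it called 909 of all genes lower and 981 higher. The fold change was above 0 for 23 of the 50 genes (46.0%), against 50.2% of all genes, and the median was -0.03. Both HMOX1si2 libraries lay above both siControl libraries for 11 genes and below both for 16, where all genes gave 28.9% and 28.1%. Both sets of values rest on the same siControl libraries.

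Set directly against each other, HMOX1si2 was below HMOX1si1 for 45 of the 50 genes. The median difference was -0.20, against 0.0035 for all genes tested. Both HMOX1si2 libraries lay below both HMOX1si1 libraries for 34 genes and above both for 3, where all genes gave 26.0% and 25.3%. Only HJURP passed the test of the difference, as higher with HMOX1si2, where 3.62% of all genes passed (2.14% higher and 1.49% lower). At an unadjusted p under 0.05, 2 genes were higher and 11 lower with HMOX1si2. Of all 13769 genes, 1464 were higher and 1378 lower at that p. This comparison and the first share the HMOX1si1 libraries, so the lean of one is not independent of the other. Summed over the 50 genes, the level was 4424 and 4809 CPM with HMOX1si1, 4351 and 3848 CPM with HMOX1si2, and 4194 and 3912 CPM with siControl. The HMOX1si1 sums were the highest pair, and the sums of HMOX1si2 straddled those of siControl. Sums weigh the most abundant genes most. The median log2 CPM of the 50 was 5.8743 and 6.0024 with HMOX1si1 and 5.9102 and 5.7700 with HMOX1si2. With siControl it was 5.8696 and 5.7993. On that measure HMOX1si1 overlapped HMOX1si2, and its lower library was barely above the higher siControl one.

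**Figure D2:**
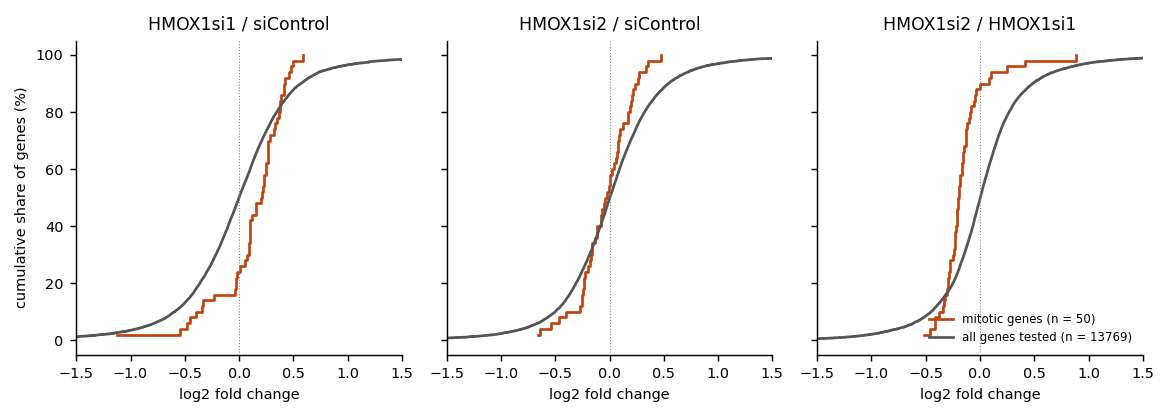
The curves give the cumulative share of genes (vertical axis, percent) at or below each log2 fold change (horizontal axis) for the 50 mitotic genes and for all 13769 genes tested, in the 3 comparisons. The mitotic curve lies right of the curve of all genes around 0 with HMOX1si1 (median 0.20), close to it with HMOX1si2 (median -0.03), and left of it for HMOX1si2 against HMOX1si1 (median -0.20).

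The calls with HMOX1si1 needed all 4 libraries of the comparison. Without siControl replicate 1 or 2, or without HMOX1si1 replicate 1 or 2, 0 of the 50 genes were called, with a lowest adjusted p of 0.0548, 0.0792, 0.0633 and 0.0756 (HJURP in the first of these fits at -1.18). Leaving out a library left few calls of any kind: the count over all genes was 173, 0, 198 and 67 in these fits, against 1381 with all libraries. The median of the 50 genes was 0.21, 0.14, 0.20 and 0.14 in the same fits.

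**Figure D3:**
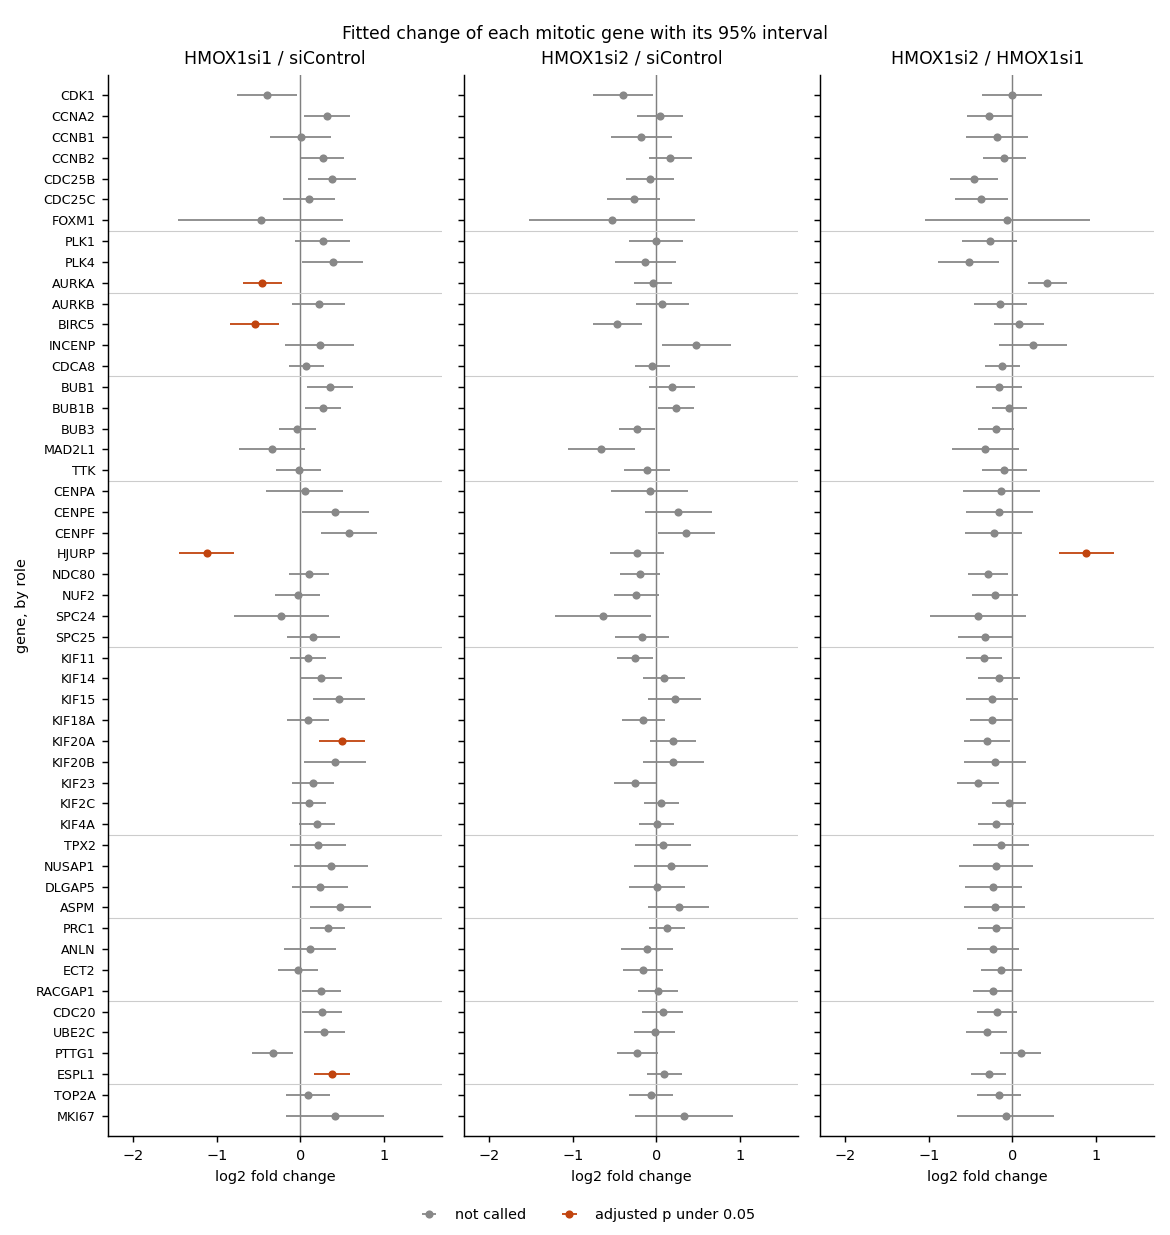
Points are fitted log2 fold changes of the 50 genes and lines their 95% intervals, in 3 panels for HMOX1si1 against siControl, HMOX1si2 against siControl and HMOX1si2 against HMOX1si1. Orange marks an adjusted p under 0.05: AURKA, BIRC5, HJURP, KIF20A and ESPL1 in the first panel, none in the second and HJURP in the third.

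The largest change of any mitotic gene was in HJURP, the chaperone that loads the histone variant CENP-A onto centromeres after division. HJURP (ENSG00000123485, chr2:233833416-233854566, minus strand) was at 36.3 and 35.8 CPM with HMOX1si1 and at 74.6 and 58.8 CPM with HMOX1si2, against 75.2 and 81.7 CPM with siControl. Its HMOX1si1 libraries were far below the other 4. Both HMOX1si2 libraries were below both siControl libraries, as for 28.1% of all genes, but replicate 1 (74.6 CPM) was close to siControl replicate 1 (75.2 CPM). The log2 fold change was -1.12 with HMOX1si1 (95% interval -1.45 to -0.79, adjusted p = 0.0107) and -0.23 with HMOX1si2 (-0.56 to 0.09, adjusted p = 0.308). The difference, HMOX1si2 minus HMOX1si1, was 0.89 (0.56 to 1.21, adjusted p = 0.0278, edgeR). That difference kept its call without HMOX1si2 replicate 2 (adjusted p = 0.0292) and lost it without each of the other libraries (adjusted p between 0.0704 and 0.147). In the fit of those 2 groups alone the difference was not called (adjusted p = 0.0743).

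CENPA, which encodes the histone variant that HJURP loads, was not called. It was at 14.2 and 17.3 CPM with HMOX1si1, at 12.1 and 16.7 CPM with HMOX1si2 and at 15.4 and 15.0 CPM with siControl, and the groups overlapped. CENPF, a large protein of the outer corona, was at 214 and 234 CPM with HMOX1si1 and at 211 and 173 CPM with HMOX1si2, against 162 and 137 CPM with siControl. All 4 knockdown libraries lay above both controls. Its log2 fold change was 0.58 with HMOX1si1 (adjusted p = 0.0523) and 0.36 with HMOX1si2 (adjusted p = 0.175), and DESeq2 called it with HMOX1si1, as did edgeR on library totals, without the count filter, with a filter at 10 CPM and in the fit of those 2 groups alone. CENPE, the kinetochore motor, had log2 values of 0.42 with HMOX1si1 and 0.26 with HMOX1si2. The 4 subunits of the NDC80 complex, which grips microtubules, spread around 0 with HMOX1si1 (NDC80 0.10, NUF2 -0.03, SPC24 -0.23, SPC25 0.16) and were all below it with HMOX1si2 (NDC80 -0.20, NUF2 -0.24, SPC24 -0.64, SPC25 -0.17), with no call. Over the 8 centromere and kinetochore genes the median was 0.08 with HMOX1si1 and -0.18 with HMOX1si2.

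Of the Polo and Aurora kinases, 1 was called. AURKA, the kinase that matures centrosomes and spindle poles, fell with HMOX1si1: it was at 93.2 and 99.3 CPM there and at 134 and 123 CPM with HMOX1si2, against 129 and 135 CPM with siControl. The HMOX1si1 libraries were below all others, and HMOX1si2 overlapped siControl. The log2 fold change was -0.46 with HMOX1si1 (95% interval -0.69 to -0.23, adjusted p = 0.0373) and -0.04 with HMOX1si2 (-0.27 to 0.19, adjusted p = 0.826), and the difference of 0.42 was not called (adjusted p = 0.0723, edgeR), though DESeq2 called it. PLK1, which acts from mitotic entry to cytokinesis, was at 219 and 249.8 CPM with HMOX1si1, at 214 and 173 CPM with HMOX1si2 and at 189 and 199.9 CPM with siControl. PLK4, the kinase that starts centriole duplication, was at 31.6 and 33.7 CPM with HMOX1si1, at 25.1 and 20.4 CPM with HMOX1si2 and at 27.2 and 22.7 CPM with siControl. For both kinases the HMOX1si1 libraries were above the other 4, with log2 values of 0.27 and 0.39 that were not called. PLK4 had the most negative difference between the siRNAs of the 50 genes, -0.52 (adjusted p = 0.121, edgeR), which DESeq2 called.

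The chromosomal passenger complex, which corrects wrong attachments under Aurora B, was uneven among its 4 members. BIRC5 (survivin), the subunit that also blocks cell death, fell with HMOX1si1. It was at 18.6 and 18.2 CPM with HMOX1si1 and at 21.0 and 17.9 CPM with HMOX1si2, against 26.6 and 27.3 CPM with siControl. All 4 knockdown libraries were below both controls and the 2 siRNAs overlapped each other. The log2 fold change was -0.55 with HMOX1si1 (95% interval -0.84 to -0.25, adjusted p = 0.0434) and -0.47 with HMOX1si2 (-0.76 to -0.18, adjusted p = 0.0804), and DESeq2 called both. INCENP, the scaffold, was at 80.1 and 94.3 CPM with HMOX1si1 and at 119 and 87.8 CPM with HMOX1si2, against 78.0 and 70.8 CPM with siControl. Its HMOX1si2 value of 0.48 was the highest of the 50 in that comparison but was not called (adjusted p = 0.151), and its HMOX1si2 libraries stood far apart. AURKB and CDCA8 (borealin) had log2 values of 0.22 and 0.07 with HMOX1si1 and 0.07 and -0.05 with HMOX1si2.

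**Figure D4:**
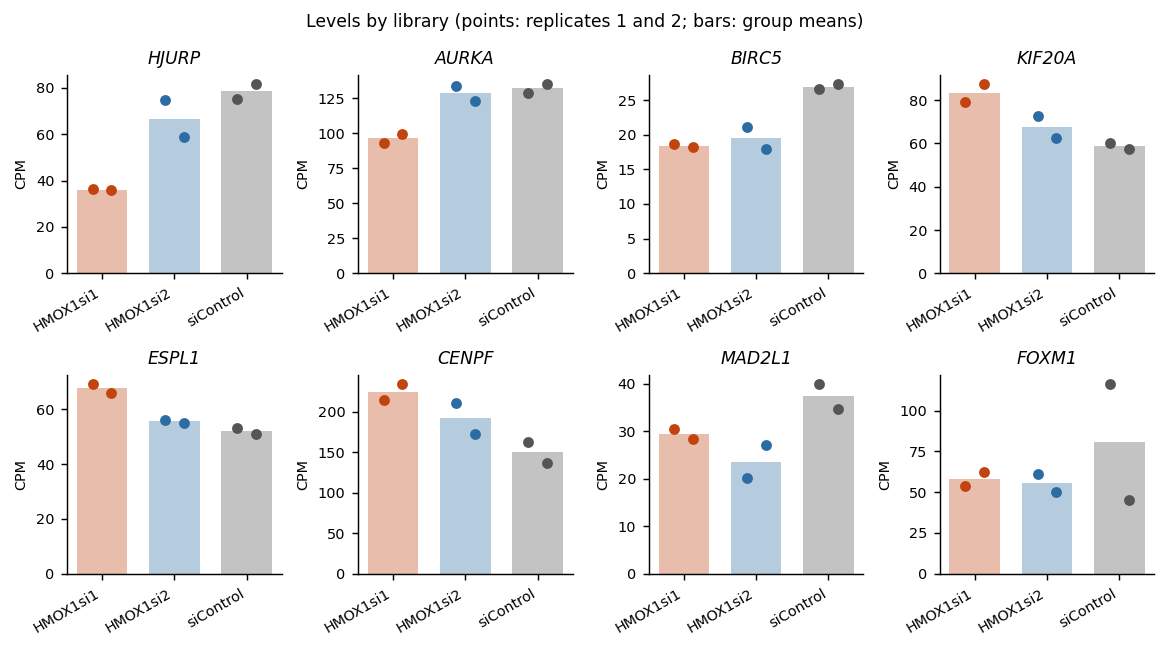
Points are CPM in each of the 2 libraries of a group and bars the group means, for the 5 called genes and for CENPF, MAD2L1 and FOXM1. HJURP and AURKA are lowest with HMOX1si1, and the higher HJURP point of HMOX1si2 lies close to the lower siControl point. BIRC5 is low with both siRNAs, and the 2 siControl points of FOXM1 stand 2.58-fold apart.

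Among the spindle checkpoint genes, MAD2L1 had values below 0 and BUB1 and BUB1B values above it with both siRNAs. MAD2L1 encodes the inhibitor that unattached kinetochores release against CDC20. It was at 30.5 and 28.4 CPM with HMOX1si1 and at 20.1 and 27.0 CPM with HMOX1si2, against 39.8 and 34.7 CPM with siControl. All 4 knockdown libraries were below both controls. Its log2 value of -0.66 with HMOX1si2 was the most negative of the 50 in that comparison (95% interval -1.06 to -0.26, adjusted p = 0.0732, edgeR). It was called by DESeq2, and by edgeR without HMOX1si2 replicate 2 (adjusted p = 0.0496). With HMOX1si1 it was -0.34 (adjusted p = 0.217). BUB3, the checkpoint adaptor with the highest CPM of this group, was at 119.8 and 112 CPM with HMOX1si1, at 100.01 and 102 CPM with HMOX1si2 and at 121 and 116 CPM with siControl, a value of -0.23 with HMOX1si2. BUB1 and BUB1B (BUBR1) had log2 values of 0.35 and 0.27 with HMOX1si1 and 0.19 and 0.23 with HMOX1si2, and the kinase TTK (MPS1) -0.02 and -0.11. None of the 5 was called with either siRNA.

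The 9 kinesins lay on the same side of the controls with HMOX1si1. These are the motors that slide, crosslink and shorten spindle microtubules. For all 9, both HMOX1si1 libraries were above both siControl libraries, with log2 values from 0.09 (KIF11, the motor that pushes the poles apart) to 0.50 (KIF20A) and a median of 0.20, where 31.9% of all genes had that order. For all 9, both HMOX1si2 libraries were also below both HMOX1si1 libraries, as for 26.0% of all genes, with differences from -0.41 (KIF23) to -0.04 (KIF2C, the centromeric microtubule depolymerase). The 9 genes were read in the same libraries, so they are not 9 independent observations. Against siControl, HMOX1si2 gave 6 values above 0 and 3 below, with a median of 0.06. Of these values 1 was called: KIF20A, a motor of the central spindle needed for cytokinesis, rose with HMOX1si1. It was at 79.2 and 87.5 CPM with HMOX1si1 and at 72.8 and 62.6 CPM with HMOX1si2, against 60.4 and 57.5 CPM with siControl. The 3 groups did not overlap and stood in that order. Its log2 fold change was 0.50 with HMOX1si1 (95% interval 0.22 to 0.78, adjusted p = 0.0468) and 0.20 with HMOX1si2 (-0.08 to 0.48, adjusted p = 0.307). KIF20A shares 5.05% of its exon bases with BRD8 and CDC23. KIF4A, the chromosome-bound motor with the highest CPM of the 9, was at 116 and 119.7 CPM with HMOX1si1, at 104 and 101 CPM with HMOX1si2 and at 106 and 99.4 CPM with siControl, a value of 0.20 with HMOX1si1 that was not called. KIF15 (0.46), which helps keep the spindle bipolar, and KIF20B (0.41) were the next largest. DESeq2 also called KIF15 with HMOX1si1, and KIF11 and KIF23 lower with HMOX1si2 than with HMOX1si1. CENPE, a kinesin listed here with the kinetochore genes, was not among the 9. Its HMOX1si1 libraries also lay above both controls, but its HMOX1si2 libraries overlapped those of HMOX1si1.

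The 4 spindle-associated proteins had values above 0 with both siRNAs and no call by edgeR, while DESeq2 called ASPM with HMOX1si1. TPX2, the activator of Aurora A on the spindle, was at 235 and 278 CPM with HMOX1si1, at 258 and 210.4 CPM with HMOX1si2 and at 227 and 217 CPM with siControl. Its HMOX1si1 libraries were above both controls, and HMOX1si2 overlapped both other groups. ASPM, a protein of the spindle poles, was at 134 and 148 CPM with HMOX1si1 and at 129 and 114.9 CPM with HMOX1si2, against 114.5 and 87.7 CPM with siControl. Its HMOX1si1 libraries lay above both controls, while HMOX1si2 replicate 2 was nearly level with siControl replicate 1. The ASPM values were 0.48 with HMOX1si1 (adjusted p = 0.0936, edgeR) and 0.27 with HMOX1si2 (adjusted p = 0.302). NUSAP1 and DLGAP5 had values of 0.37 and 0.23 with HMOX1si1 and 0.17 and 0.01 with HMOX1si2. TPX2 and AURKA, partners on the spindle, thus had values of opposite sign with HMOX1si1, of which only that of AURKA was called.

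In cytokinesis, PRC1, which bundles the microtubules of the central spindle, was at 95.4 and 96.4 CPM with HMOX1si1 and at 86.5 and 80.6 CPM with HMOX1si2, against 76.3 and 76.8 CPM with siControl. Its groups did not overlap, and its log2 value was 0.33 with HMOX1si1 (adjusted p = 0.0670, edgeR) and 0.13 with HMOX1si2. DESeq2 called PRC1 with HMOX1si1. ANLN, the anillin scaffold of the contractile ring, was at 178 and 199 CPM with HMOX1si1 and at 169.8 and 151 CPM with HMOX1si2. With siControl it was at 189 and 159 CPM. Both HMOX1si2 libraries were below both HMOX1si1 libraries, and siControl overlapped both siRNAs. ECT2 and RACGAP1, which switch on RhoA at the cleavage furrow, had values of -0.03 and 0.25 with HMOX1si1 and -0.16 and 0.02 with HMOX1si2.

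At anaphase, separase and its inhibitor securin had values of opposite sign. ESPL1, the separase that cuts cohesin, rose with HMOX1si1: it was at 69.2 and 66.2 CPM there and at 56.2 and 55.0 CPM with HMOX1si2, against 53.1 and 51.1 CPM with siControl. Its 3 groups did not overlap. The log2 fold change was 0.38 with HMOX1si1 (95% interval 0.17 to 0.59, adjusted p = 0.0488) and 0.09 with HMOX1si2 (-0.12 to 0.31, adjusted p = 0.525). This was the least firm of the 5 calls, lost on library totals, without the count filter, in the fit of those 2 groups alone and whenever any 1 of the 6 libraries was left out (adjusted p from 0.0621 to 0.204 in those last fits). PTTG1, the securin that holds separase inactive, had values of -0.33 with HMOX1si1 (adjusted p = 0.0881) and -0.23 with HMOX1si2. UBE2C was at 149.5 and 159 CPM with HMOX1si1, at 128 and 122 CPM with HMOX1si2 and at 119 and 134 CPM with siControl, a value of 0.29 with HMOX1si1 that was not called. CDC20 had values of 0.26 with HMOX1si1 and 0.07 with HMOX1si2.

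The drivers of mitotic entry gave no call. CDC25B, the phosphatase that primes CDK1 and the gene with the highest CPM of this role, was at 411 and 472 CPM with HMOX1si1, at 346 and 297 CPM with HMOX1si2 and at 335 and 344 CPM with siControl. Its HMOX1si1 libraries were above the other 4, with values of 0.38 against siControl (adjusted p = 0.0939) and -0.46 for HMOX1si2 against HMOX1si1 (adjusted p = 0.0958), both of which DESeq2 called. CDK1 had the value -0.40 with each siRNA (adjusted p = 0.134 and 0.163), with all 4 knockdown libraries, at 34.3 to 43.0 CPM, below both controls at 55.0 and 46.8 CPM. Its partners cyclin A2, B1 and B2 (CCNA2, CCNB1, CCNB2) had values of 0.32, 0.00 and 0.27 with HMOX1si1 and 0.04, -0.18 and 0.17 with HMOX1si2. FOXM1, the transcription factor that drives many genes of this set, was at 53.6 and 62.0 CPM with HMOX1si1 and at 61.1 and 49.9 CPM with HMOX1si2, against 116 and 44.95 CPM with siControl. The siControl pair enclosed all 4 knockdown libraries, so its values of -0.48 and -0.54 had intervals of -1.47 to 0.52 and -1.53 to 0.46. FOXM1 shares 15.9% of its exon bases with ITFG2, the largest overlap of the 50, and ITFG2 ran from 11.5 to 16.6 CPM over the 6 libraries.

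The proliferation marker MKI67 and the topoisomerase TOP2A, both of which shape mitotic chromosomes, were not called. MKI67 was at 347 and 448 CPM with HMOX1si1 and at 455 and 297 CPM with HMOX1si2, against 332 and 265 CPM with siControl. HMOX1si1 lay above siControl, and HMOX1si2 overlapped both other groups. The values of 0.41 and 0.33 had 95% intervals of -0.17 to 0.999 and -0.25 to 0.92. TOP2A had values of 0.10 with HMOX1si1 and -0.07 with HMOX1si2.

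Beyond the 50, the other cell-cycle genes were read from 9 lists with 180 genes, of which 179 were tested and 16 were called in at least 1 comparison. Of all genes tested 13.5% were called in at least 1 of the 3, and of the 50 mitotic genes 5 were. The anaphase-promoting complex (17 genes) had 0 calls by edgeR in all 3 comparisons (DESeq2 called 2 lower with each siRNA and 1 higher between them), with 0 higher and 6 lower at an unadjusted p under 0.05 with HMOX1si1, 0 and 4 with HMOX1si2, and 2 and 0 between the siRNAs. In the same order, 2162 and 2072, 1881 and 1679, and 1464 and 1378 of all 13769 genes were higher and lower at that p. DESeq2 called 1268 of all genes lower with HMOX1si1, 909 lower with HMOX1si2 and 726 higher between the siRNAs. The median of the complex was -0.13 with HMOX1si1 and -0.09 with HMOX1si2. Of the 14 outer kinetochore partners, ZW10, which brings dynein to the kinetochore and also serves in vesicle traffic, rose with both siRNAs. ZW10 was at 45.8 and 45.2 CPM with HMOX1si1 and at 43.9 in both HMOX1si2 libraries, against 23.1 and 24.1 CPM with siControl. Its log2 fold changes were 0.95 (adjusted p = 0.00673) and 0.90 (adjusted p = 0.0134, edgeR). Without siControl replicate 2 or HMOX1si1 replicate 2 the HMOX1si1 call was lost, and without siControl replicate 1 or 2 or HMOX1si2 replicate 1 the HMOX1si2 call was lost, with adjusted p of at most 0.0657 and 0.109. With any 1 library left out the fold changes lay between 0.91 and 0.98 with HMOX1si1 and between 0.86 and 0.93 with HMOX1si2. The other 13 of that list were not called, and its median was 0.06 with HMOX1si1 and -0.07 with HMOX1si2. Of the 16 genes of the inner centromere, CENPK fell with HMOX1si2 (-0.72, adjusted p = 0.0282). Of 19 condensin and cohesin genes, STAG2, a cohesin subunit, rose with HMOX1si1 (0.59, adjusted p = 0.0439). Condensin and cohesin had a median of 0.25 with HMOX1si1 and 0.01 with HMOX1si2, with 16 and 10 of the 19 above 0.

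Among 14 regulators of mitotic entry, 3 fell with HMOX1si2: the kinases PBK (-0.93, adjusted p = 0.0228) and MELK (-0.50, adjusted p = 0.0479) and the CDK-binding CKS2 (-0.61, adjusted p = 0.0456). Of all genes 2.67% were called lower with HMOX1si2. PBK, MELK and ENSA, an inhibitor of the phosphatase PP2A, were also called lower with HMOX1si2 than with HMOX1si1, as 1.49% of all genes were. Of 26 spindle and centrosome partners, the augmin subunit HAUS6 was called lower with HMOX1si2 than with HMOX1si1 (-0.73, adjusted p = 0.0264). The 20 cell-cycle transcription factors included E2F2, which fell with both siRNAs (-0.62 and -0.96, adjusted p = 0.0424 and 0.0243), E2F8, which rose with HMOX1si1 (0.76, adjusted p = 0.0331), and TFDP2, which fell with HMOX1si1 (-0.42, adjusted p = 0.0387). Among 13 CDK inhibitors and G1 regulators (12 tested), CDK6 rose with both siRNAs (1.2 and 1.07, edgeR adjusted p = 0.00691 and 0.0177). CDKN2B and CCND1 fell with HMOX1si2 (-0.57 and -0.54, adjusted p = 0.0290 and 0.0342). Of all genes, 5.02% were called higher with HMOX1si1, and 3.06% higher and 2.67% lower with HMOX1si2. The lowest value of the list with HMOX1si2 was -1.31, in CDKN1A, which edgeR did not call. DESeq2 called 1 of the list higher and 4 lower there, against 981 and 909 of all genes. CDK6 lost its call with HMOX1si1 without siControl replicate 2 or HMOX1si1 replicate 2, and with HMOX1si2 without either siControl library or HMOX1si2 replicate 1 (highest adjusted p 0.0636 and 0.112). E2F8 and STAG2 lost theirs without any 1 of the 4 libraries compared (highest adjusted p 0.176 and 0.194). CENPK, E2F2, TFDP2 and the calls of PBK, MELK, CKS2, ENSA, HAUS6, CDKN2B and CCND1 were lost whenever any 1 of the 6 libraries was left out, with adjusted p from 0.0503 to 0.240. With any 1 library left out, the fold change of CDK6 lay between 1.09 and 1.32 with HMOX1si1 and between 0.96 and 1.19 with HMOX1si2, E2F8 between 0.66 and 0.87 and STAG2 between 0.44 and 0.77 with HMOX1si1, and CENPK between -0.78 and -0.67 and PBK between -0.98 and -0.88 with HMOX1si2. In the fit of the 2 groups alone, the calls of E2F2 and STAG2 with HMOX1si1 and of CDKN2B, CCND1, E2F2, CENPK, PBK, MELK and CKS2 with HMOX1si2 were lost (edgeR adjusted p from 0.0506 to 0.0990), as were the differences of CDKN2B, CCND1, PBK, ENSA, MELK and HAUS6 between the siRNAs (0.0509 to 0.0921). The calls of ZW10 and CDK6 with both siRNAs, and of E2F8 and TFDP2, were kept there.

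The 41 genes of DNA replication and the G1/S step peak earlier in the cycle. Their median was 0.03 with HMOX1si1 and -0.21 with HMOX1si2, where the 50 mitotic genes had 0.20 and -0.03. With HMOX1si2, both libraries were below both controls for 29 of the 41 and above both for 4, where all genes gave 28.1% and 28.9%. By edgeR 1 gene was called: POLA2, a subunit of DNA polymerase alpha, fell (-0.45, adjusted p = 0.0483). Of all genes 2.67% were called lower. At an unadjusted p under 0.05 in that test, 1 of the 41 was higher and 12 lower, where 1881 and 1679 of all genes were. DESeq2 called 1 higher and 8 lower, against 981 and 909 of all genes. With HMOX1si1, CCNE1 (cyclin E1) fell: it was at 2.81 and 3.43 CPM with HMOX1si1 and at 4.82 and 4.91 CPM with HMOX1si2, against 7.60 and 7.14 CPM with siControl. Its log2 fold change was -1.24 (adjusted p = 0.0124) with HMOX1si1 and -0.60 (adjusted p = 0.0810, edgeR) with HMOX1si2. Between the siRNAs the medians were -0.18 for the replication genes and -0.20 for the mitotic genes. The difference between the lists was not tested. CCNE1 lost its call without either siControl or either HMOX1si1 library (highest adjusted p 0.0770), and POLA2 without any 1 of the 6 libraries (adjusted p from 0.0947 to 0.192) and in the fit of those 2 groups alone (0.1002, edgeR). Without 1 library the fold change of CCNE1 lay between -1.39 and -1.11 and that of POLA2 between -0.51 and -0.40.

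The promoters of the mitotic genes share letters that the choice of genes did not use. In the cell-cycle homology region, to which MuvB binds, the letters are TTTGAA or TTTAAA, and CCAAT is the site of the factor NF-Y. These letters were searched on both strands of windows from 250 bases before to 50 bases after each gene's start, taken from RefSeq (GRCh38.p14). Windows were found for 42 of the 50 genes, 54 windows in all. AURKA, BIRC5, BUB3, FOXM1, RACGAP1, TPX2, TTK and UBE2C had none. The 3 called genes with a window are shown from 150 bases before to 50 bases after the start, on the gene's strand, with the searched letters in capitals (ATTGG is CCAAT on the other strand). They are HJURP at chr2:233854486-233854685 on the minus strand, KIF20A at chr5:138178962-138179161 and ESPL1 at chr12:53268149-53268348 on the plus strand.
HJURP: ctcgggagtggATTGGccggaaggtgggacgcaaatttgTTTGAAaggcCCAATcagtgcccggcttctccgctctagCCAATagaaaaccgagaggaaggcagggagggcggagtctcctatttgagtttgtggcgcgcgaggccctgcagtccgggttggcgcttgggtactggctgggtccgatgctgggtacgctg
KIF20A: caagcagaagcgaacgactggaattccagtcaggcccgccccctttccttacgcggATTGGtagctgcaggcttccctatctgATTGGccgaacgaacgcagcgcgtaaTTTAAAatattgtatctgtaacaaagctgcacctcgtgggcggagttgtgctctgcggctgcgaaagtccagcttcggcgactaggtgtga
ESPL1: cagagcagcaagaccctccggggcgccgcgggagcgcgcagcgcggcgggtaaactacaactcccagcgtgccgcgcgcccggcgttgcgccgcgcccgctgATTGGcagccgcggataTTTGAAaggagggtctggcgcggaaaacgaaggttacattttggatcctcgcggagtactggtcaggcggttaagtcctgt
HJURP, which fell, and ESPL1, which rose, both hold TTTGAA, beginning at base -111 and base -31 from the start, and KIF20A holds TTTAAA at base -41. All 3 windows hold CCAAT as well.

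Over the 54 windows, TTTGAA was found in 64.8%, TTTAAA in 29.6% and CCAAT in 74.1%. Over all 35116 windows of the table the shares were 15.2%, 12.2% and 34.6%, and over the windows of the genes tested 10.6%, 8.57% and 34.4%. TTTGAA or TTTAAA was found in 77.8% of the mitotic windows, against 17.3% of windows of tested genes. Neither hexamer contains CCAAT, though matches may share end bases, and TTTAAA reads the same on both strands. The matches lay close to the start: TTTGAA began in the last 50 bases before the start in 33.3% of mitotic windows, against 1.78% of windows of tested genes, and CCAAT began between 100 and 50 bases before it in 53.7%, against 15.0%. The fold changes were also split by the letters. The median with HMOX1si1 was 0.22 for the 38 genes with TTTGAA or TTTAAA and 0.27 for the 4 without, and with HMOX1si2 it was -0.03 and 0.06. For CCAAT the medians with HMOX1si1 were 0.23 for 35 genes with it and 0.12 for 7 without. With HMOX1si2 the order was the other way, at -0.006 with it and 0.059 without. These are descriptions of letters, with no test, and a match does not show that a factor binds.

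**Figure D5:**
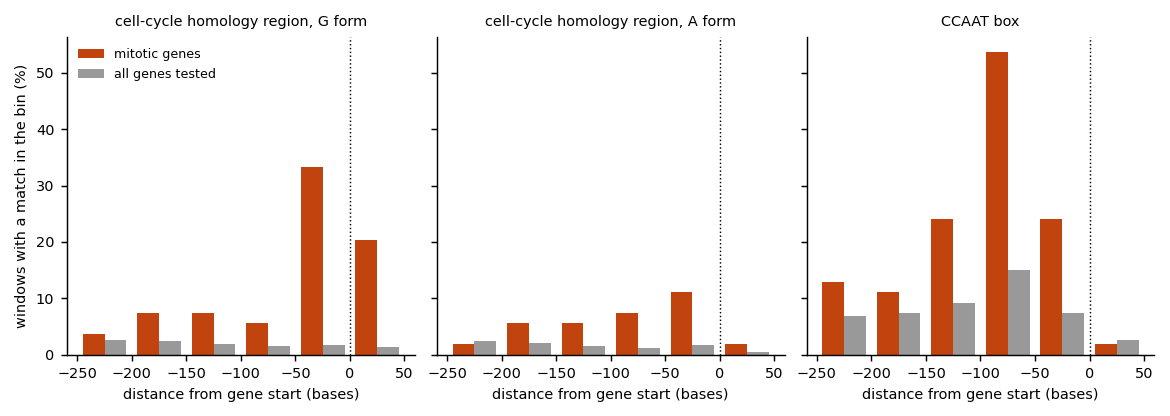
Bars give the percent of promoter windows in which the letters begin in each 50-base bin (vertical axis) by distance from the gene start (horizontal axis, 0 is the start), for the mitotic genes and for all genes tested. The G form of the cell-cycle homology region reaches 33.3% just before the start and the CCAAT box 53.7% one bin further upstream, against 1.78% and 15.0% for the genes tested.

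Counts of overlapping genes may be divided between gene models. Of the 50 genes 13 share exon bases with another gene of the table (0.21% to 15.9% of their length), as do 32.0% of the genes tested. HJURP shares 0.21% of its exon bases with MROH2A, and AURKA, BIRC5 and ESPL1 share none.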

How the data were processed

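The authors deposited 1 table of expected counts (estimated counts per gene) for the 6 libraries; this unit is inferred from the values, since no label states it. The values were rounded to whole numbers before use. After rounding, even numbers make up 71.9% of the entries between 1 and 10 but 49.9% of the entries over 100, so how reads were counted is not settled. Per the submitters' processing notes the builds are GRCm38 and mm10, which are mouse builds, whereas the identifiers are human; no aligner or counter is given in the sources used here. RNA was taken with a column kit and libraries were made with an mRNA kit, per the labels' protocols.

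Symbols matched 20148 of 20263 identifiers. Coordinates and exon overlaps are from GENCODE 29 (GRCh38), and promoters from RefSeq (GRCh38.p14). In R 4.3.3, edgeR 4.0.16 kept 13769 genes (filterByExpr), scaled them by TMM and fitted 1 mean per group over all 6 libraries (glmQLFit, glmQLFTest); p-values were adjusted by Benjamini-Hochberg over all 13769. The fit had a common biological coefficient of variation of 0.165, with 3.11 prior degrees of freedom. CPM values use library sizes after TMM, except those of the lineage markers, which use library totals. Standard errors were derived from the F statistic. The script was tested on simulated data. The fit has no replicate block. DESeq2 1.42.0, other scalings and filters, a replicate block and leaving out each library were tried.

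The 50 genes and all lists were chosen with earlier results of these data known. Values in every library are given for HMOX1, each called gene, and in each role the gene with the highest mean log2 CPM and the one with the largest fold change. Of the other lists up to 3 called genes with the smallest p are named. CENPA and CDK1, given by library, and CKS2 and CDKN1A were added after their values were seen.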

Additional observations from a re-analysis of the deposited data

Results flagged for a closer look

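The siRNAs differed in 7 of the genes named above by the direct test of HMOX1si2 against HMOX1si1 (edgeR quasi-likelihood test, Benjamini-Hochberg over all genes tested). These are 7 of the 229 tested genes of the mitotic set and the other lists, and over all genes 3.62% passed the same test. HJURP was 0.89 higher on the log2 scale with HMOX1si2, with values against siControl of -0.23 with HMOX1si2 and -1.12 with HMOX1si1 (adjusted p of the difference 0.0278). It was the only mitotic gene of the 50 with such a difference, and the only one of the 7 that was higher with HMOX1si2.

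The other 6 were lower with HMOX1si2. CDKN2B, an inhibitor of CDK4 and CDK6, differed by -0.71, with values of -0.57 with HMOX1si2 and 0.14 with HMOX1si1. CCND1, cyclin D1, differed by -0.51 (-0.54 with HMOX1si2 and -0.04 with HMOX1si1). PBK differed by -0.67 (-0.93 with HMOX1si2 and -0.26 with HMOX1si1), ENSA by -0.72 (-0.51 with HMOX1si2 and 0.22 with HMOX1si1) and MELK by -0.61 (-0.50 with HMOX1si2 and 0.10 with HMOX1si1). HAUS6 differed by -0.73 (-0.27 with HMOX1si2 and 0.45 with HMOX1si1). The adjusted p-values of these 6 differences lay between 0.0178 and 0.0480, and each was lost when any 1 of the 6 libraries was left out and in the fit of those 2 groups alone. The difference of HJURP was also lost in that fit (adjusted p = 0.0743).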

How the results depend on the processing

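DESeq2 called more and a replicate block fewer. With HMOX1si1, DESeq2 called 7 mitotic genes higher (CENPF, KIF20A, ESPL1, PRC1, KIF15, ASPM and CDC25B) and 3 lower (HJURP, AURKA and BIRC5). Of all genes it called 1371 higher and 1268 lower there. The block left 0 of the 50 higher and 1 lower with HMOX1si1. With HMOX1si2, DESeq2 called 2 lower. Between the siRNAs, DESeq2 called 2 higher (HJURP and AURKA) and 4 lower (CDC25B, KIF23, KIF11 and PLK4) with HMOX1si2. The block and the fit of those 2 groups alone called 0 higher. Over all genes, DESeq2 called 2639, 1890 and 1411 in the 3 comparisons (HMOX1si1, HMOX1si2, and between the siRNAs) and the block 481, 45 and 87. The fit of the 2 groups alone called 179 with HMOX1si2 and 156 between the siRNAs, and a block with the HMOX1si2 numbers crossed, added after seeing the data, 312. The labels do not say whether the numbers pair the libraries. Deviations of same-numbered replicates from their group means had correlations of 0.008 and 0.027 between siControl and the siRNAs. Between HMOX1si1 and HMOX1si2 the correlation was -0.153, so there unlike-numbered libraries deviated together weakly. With 2 libraries a group, such correlations cannot exclude pairing. With the replicate number as a block, HJURP with HMOX1si1 (adjusted p = 0.0301) was the only call left among the 50, and its difference between the siRNAs was not called (0.0653). Of the other single genes named, the block kept HMOX1 with both siRNAs and CDK6, CCNE1 and ZW10 with HMOX1si1. It did not call ZW10 (0.0609) and CDK6 (0.0539) with HMOX1si2, nor the rest (edgeR adjusted p from 0.0634 to 0.130). When 1 library was left out, the mitotic calls ranged from 0 to 2 higher and 0 to 3 lower with HMOX1si1, from 0 to 1 lower with HMOX1si2 and from 0 to 1 higher between the siRNAs, and the calls over all genes from 0 to 1492, from 0 to 362 and from 19 to 204. The medians of the 50 genes moved by less than the SD of the library medians (0.0827); that with HMOX1si2 was 0.02 without HMOX1si2 replicate 2. Of 418 alternatives for 32 single-gene results, 0 changed sign and 216 lost the call; the cause was not tested. With 2 libraries a group, a value that misses the threshold does not show equal levels.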
